A study of Homo sapiens with 4 samples.

Results

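Retinoic acid, the active form of vitamin A, acts through nuclear receptors, and 9 genes of its response were followed here in a pair of human lung cancer lines: RARRES1, RARRES2, RARA, RARB, RARG, RXRA, CRABP2, CYP26B1 and DHRS3. They were chosen by symbol with the difference between the lines already known, so their values are given as a description and without a test. The 9 genes are 9 of 18239 genes that had a probe set naming a single gene, and each is represented by its brightest probe set, taken as the highest average of the 4 arrays. All 9 lay above the level under which genes were left out as dim, a log2 value of 4.14, so all 9 are among the 14970 tested genes.

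The lines are PC9, a lung adenocarcinoma line whose EGFR carries an activating mutation, and MTAC-P, a resistant lung cancer line established by mild exposure to a tyrosine kinase inhibitor (TKI). There were 2 arrays of total RNA per line, and cells of both lines were grown in DMEM with serum. The inhibitor, its dose, the parent of MTAC-P and the presence of drug at collection are not given in the sources used here. The labels call the arrays duplicates and name no separate cultures, so their spread may be technical, and their number limits the precision. Of the cell type markers, the 6 epithelial genes (EPCAM, CDH1, KRT8, KRT18, KRT19 and KRT7) lay between 10.28 and 14.42 on all arrays. The 4 lung lineage markers (NKX2-1, NAPSA, SFTPB and SFTPC) lay between 4.59 and 5.22, the 3 blood markers between 3.94 and 5.22, and the 5 fibroblast and endothelial markers between 4.05 and 5.95, where the highest value was that of CDH5 on an MTAC-P array.

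In cells, retinol is oxidised first to retinaldehyde and then to retinoic acid. Retinoic acid is carried to the nucleus by binding proteins such as CRABP2, binds retinoic acid receptors (RARs) paired with retinoid X receptors (RXRs), and is broken down by enzymes of the CYP26 family. RARs bind direct repeats of a short hexamer in DNA, and among their known targets are genes that curb the signal itself, such as those of CYP26 enzymes and DHRS3. RARRES1 was named for its response to a retinoid in skin. It encodes a membrane protein related to latexin and has been studied as a candidate tumour suppressor whose promoter is methylated in several cancers.

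The start region of RARRES1 is shown because RARRES1 differed most of the 9 genes, and that of RARB because it holds a repeat of the kind RARs bind. Each window runs from 250 bases before to 50 bases after a gene's start, 5′ to 3′ on the gene's strand, as given by RefSeq on GRCh38.p14. RARRES1 lies on the minus strand, with its window at chr3:158732408-158732707, and capitals mark its CG dinucleotides. The window of RARB shown, 1 of 4 for that gene, lies on the plus strand at chr3:25428013-25428312, and capitals mark the hexamers of the repeat.
RARRES1: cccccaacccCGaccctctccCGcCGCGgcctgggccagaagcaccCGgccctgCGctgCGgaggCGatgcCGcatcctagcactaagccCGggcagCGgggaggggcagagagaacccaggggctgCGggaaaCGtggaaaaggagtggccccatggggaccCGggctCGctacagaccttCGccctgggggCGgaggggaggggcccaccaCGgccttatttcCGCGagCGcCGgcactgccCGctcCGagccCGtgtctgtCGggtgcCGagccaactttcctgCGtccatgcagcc
RARB: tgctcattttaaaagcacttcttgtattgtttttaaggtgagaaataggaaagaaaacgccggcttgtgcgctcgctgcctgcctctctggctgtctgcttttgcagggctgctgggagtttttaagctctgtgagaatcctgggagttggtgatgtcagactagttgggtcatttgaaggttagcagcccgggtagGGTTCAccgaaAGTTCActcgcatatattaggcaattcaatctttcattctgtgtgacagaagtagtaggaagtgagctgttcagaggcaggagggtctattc

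The RARRES1 window holds 28 CG dinucleotides, against a median of 14 over 35116 windows, of which 73.8% hold fewer. Hexamers with the letters AGGTCA or GGGTCA or AGTTCA or GGTTCA were searched on both strands, singly and as direct repeats of any of these with a spacer of 1, 2 or 5 bases. None was found in the RARRES1 window, whereas 38.6% of all windows hold at least 1. A direct repeat with a spacer of 5 lies in the RARB window from 53 to 37 bases before the start, and 0.0883% of all windows hold such a repeat. It is the single repeat found in the 17 windows of the 9 genes. A like repeat lies in a window of CYP26A1, the other well-studied CYP26 gene, at chr10:93073643-93073942 on the minus strand, where the gene runs on the plus strand, with the hexamers in capitals.
CYP26A1 repeat: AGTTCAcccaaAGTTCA

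RARRES1 was lower in MTAC-P than in PC9 by 5.53-fold. Its log2 expression value was 7.44 and 8.64 in PC9 and 5.62 and 5.52 in MTAC-P. Both PC9 arrays lay well above both MTAC-P arrays, and the PC9 arrays themselves lay 1.20 apart. The means were 8.04 ± 0.85 in PC9 and 5.57 ± 0.070 in MTAC-P (SD of log2 values, n = 2 each), a log2 difference of -2.47 (SE 0.37, from limma's fit over all genes). This was the 5th lowest difference of the 14970 tested genes. The other probe set of RARRES1 gave 6.80 and 7.65 in PC9 and 5.42 and 5.44 in MTAC-P, a log2 difference of -1.79. Background probe sets, named nonspecific on the array, averaged 3.81 to 3.87 over the 4 arrays where 3 to 19 of their bases are G or C, and 4.93 to 5.32 where 20 to 25 are. The MTAC-P values of RARRES1 lay not far above the second of these, so the fold may be limited by background, and how much of the MTAC-P level is background was not tested. In bulk RNA, fewer cells with the transcript and less transcript per cell cannot be told apart.

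**Figure D1:**
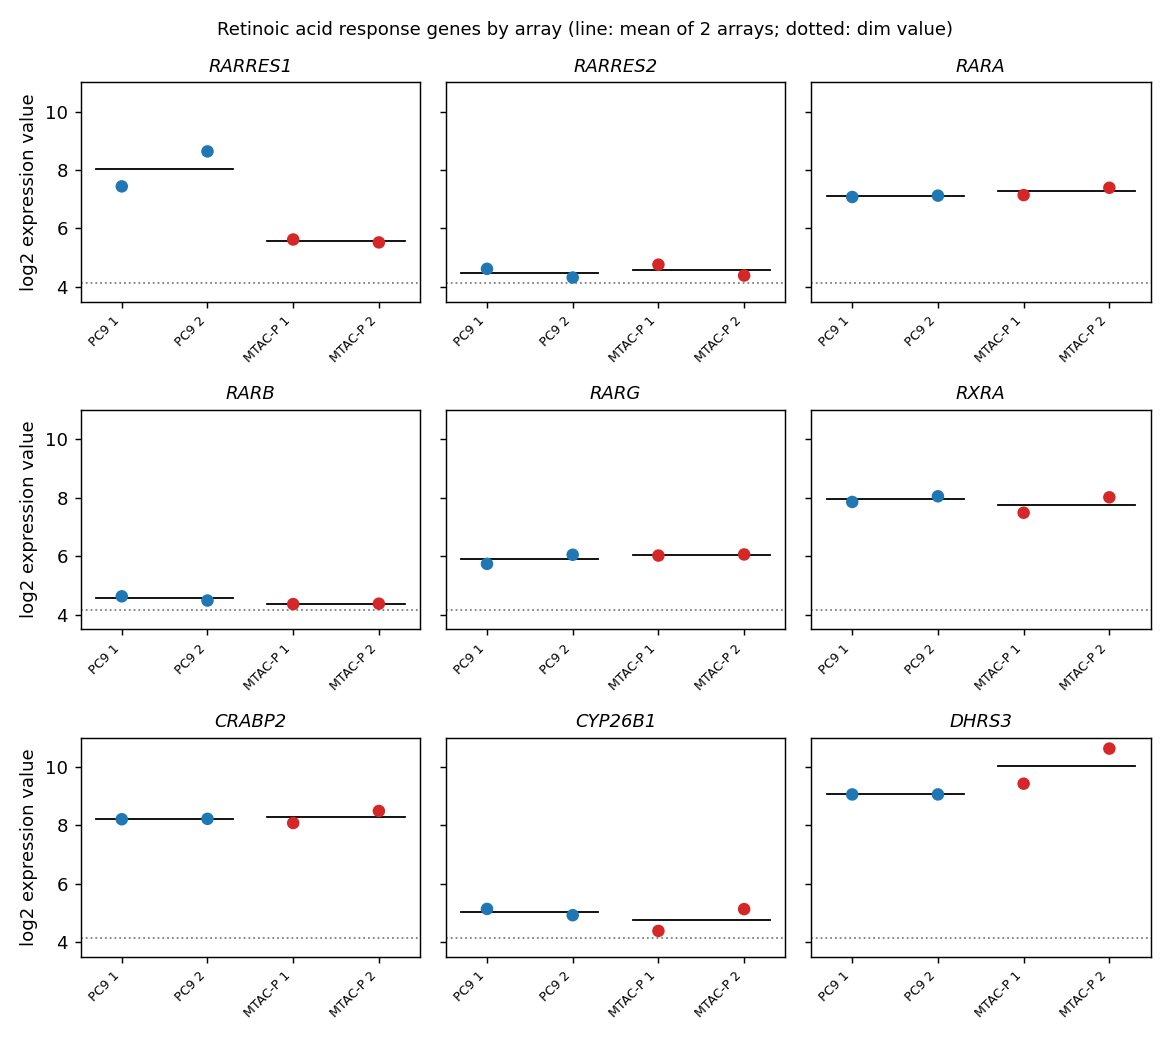
Log2 expression value (y axis) of each of the 9 genes on the 4 arrays (x axis), with PC9 in blue and MTAC-P in red, black lines at the mean of 2 arrays and a dotted line at the dim value of 4.14. RARRES1 falls from a mean of 8.04 to 5.57, and DHRS3 has a mean of 9.05 in PC9 and 10.02 in MTAC-P with its MTAC-P arrays far apart.

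DHRS3, which reduces retinaldehyde back to retinol and so lowers retinoic acid synthesis, had a mean 1.96-fold higher in MTAC-P. The PC9 arrays were nearly identical, at 9.05 each, and the MTAC-P arrays read 9.42 and 10.62. Both MTAC-P arrays lay above both PC9 arrays, and the gap between the MTAC-P arrays was larger than the line difference. The means were 9.05 ± 0.00066 and 10.02 ± 0.85 (SD, n = 2), with a log2 difference of 0.97 (SE 0.37). The size of the DHRS3 difference rested on the second MTAC-P array, since it was 0.37 when MTAC-P replicate 2 was left out and 1.57 when only MTAC-P replicate 2 was kept. A second probe set of DHRS3 differed by 0.86, with 5.47 and 5.10 in PC9 and 5.73 and 6.55 in MTAC-P. The remaining one, close to the dim value with a mean of 4.45, differed by -0.020.

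Across the 9 genes, 5 had a higher and 4 a lower mean in MTAC-P, and their median log2 difference was 0.070, beside 0.031 over all tested genes. RARRES1 was the 1 gene of the 9 at least 2-fold lower, where 1.62% of all tested genes were at least 2-fold lower, and 0 of the 9 were at least 2-fold higher, where 0.401% of all were. For 4 of the 9 genes, RARRES1, RARB, RARA and DHRS3, no array of 1 line fell within the range of the other, as for 53.2% of all tested genes. For 2 of the 9 genes, RARRES1 and RARB, the line difference was larger than the gap between the duplicates of either line, as for 38.5% of all tested genes.

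**Figure D2:**
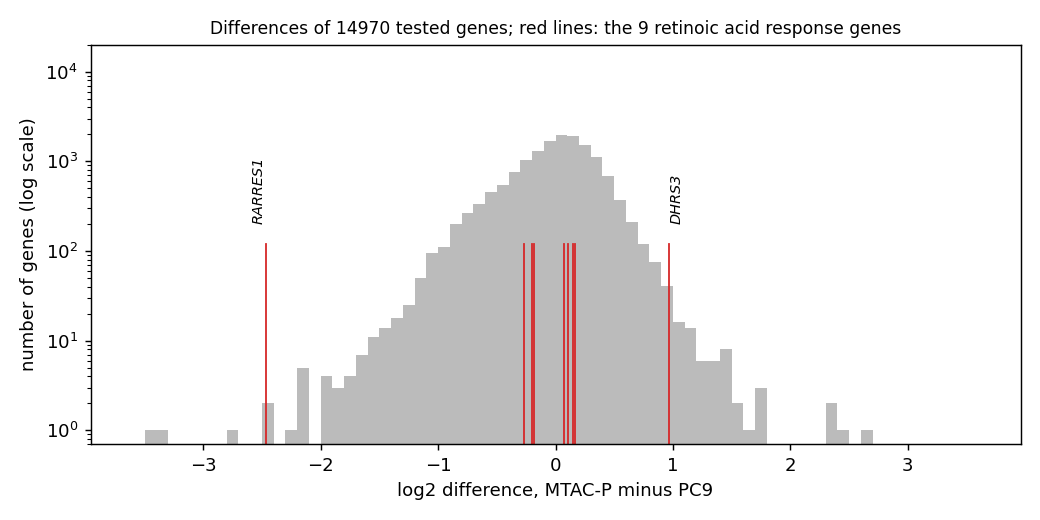
Number of genes (y axis, log scale) by log2 difference between MTAC-P and PC9 (x axis) for the 14970 tested genes, with red lines at the 9 retinoic acid response genes. RARRES1 at -2.47 lies in the low tail, DHRS3 at 0.97 in the upper tail, and the other 7 genes lie between -0.27 and 0.17.

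The retinoic acid receptors differed little between the lines. RARA, the widely expressed alpha receptor, read 7.08 and 7.12 in PC9 and 7.14 and 7.39 in MTAC-P, a log2 difference of 0.17 (SE 0.17). When an MTAC-P array was left out, the difference of RARA became 0.29 (replicate 1 out) or 0.042 (replicate 2 out). Its arrays did not overlap, but the nearest arrays of the lines were only 7.12 and 7.14. Of the 10 probe sets of RARA, 5 were higher and 5 lower in MTAC-P, from -0.43 to 0.24, and the second brightest differed by -0.020. RARG, the gamma receptor, which is prominent in epithelia, read 5.73 and 6.04 in PC9 and 6.02 and 6.06 in MTAC-P, with overlapping arrays and a log2 difference of 0.15 (SE 0.17). Its sign turned without PC9 replicate 1, to -0.0083, and its 5 probe sets ranged from -0.14 to 0.22.

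RARB, the beta receptor, which is itself a target of retinoic acid through the repeat shown above, lay close to the dim value in both lines. It read 4.62 and 4.48 in PC9 and 4.36 and 4.37 in MTAC-P, a log2 difference of -0.19 (SE 0.16), or -0.11 without PC9 replicate 1. The PC9 arrays lay slightly above the MTAC-P arrays. The other probe set of RARB, also near the dim value, differed by 0.21, and the mean of both differed by 0.0095, so the direction depends on the probe set. Which start of RARB each probe set measures is not given in the sources used here.

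RXRA, one of the RXRs with which RARs pair, read 7.85 and 8.05 in PC9 and 7.48 and 8.01 in MTAC-P. The arrays overlapped, with a log2 difference of -0.20 (SE 0.22). Both probe sets of RXRA had lower means in MTAC-P, by -0.20 and -0.28, and the first turned to 0.063 without MTAC-P replicate 1.

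CRABP2, which delivers retinoic acid to RARs in the nucleus, read 8.20 and 8.22 in PC9 and 8.07 and 8.49 in MTAC-P. The MTAC-P arrays lay on either side of the PC9 arrays, and the log2 difference was 0.070 (SE 0.19). The 3 probe sets of CRABP2 differed by 0.070 to 0.22, all upward, though the brightest turned to -0.14 without MTAC-P replicate 2. CYP26B1, which oxidises retinoic acid for removal, read 5.14 and 4.92 in PC9 and 4.38 and 5.13 in MTAC-P, a log2 difference of -0.27 (SE 0.26) with overlapping arrays. The other probe set of CYP26B1 differed by 0.44 in the opposite direction, and the first turned to 0.10 without MTAC-P replicate 1. RARRES2, which encodes the secreted chemoattractant chemerin, read 4.62 and 4.32 in PC9 and 4.76 and 4.39 in MTAC-P on its 1 probe set. The log2 difference of RARRES2 was 0.11 (SE 0.20), its arrays overlapped, and its sign turned without PC9 replicate 2, to -0.043, and without MTAC-P replicate 1, to -0.080.

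**Figure D3:**
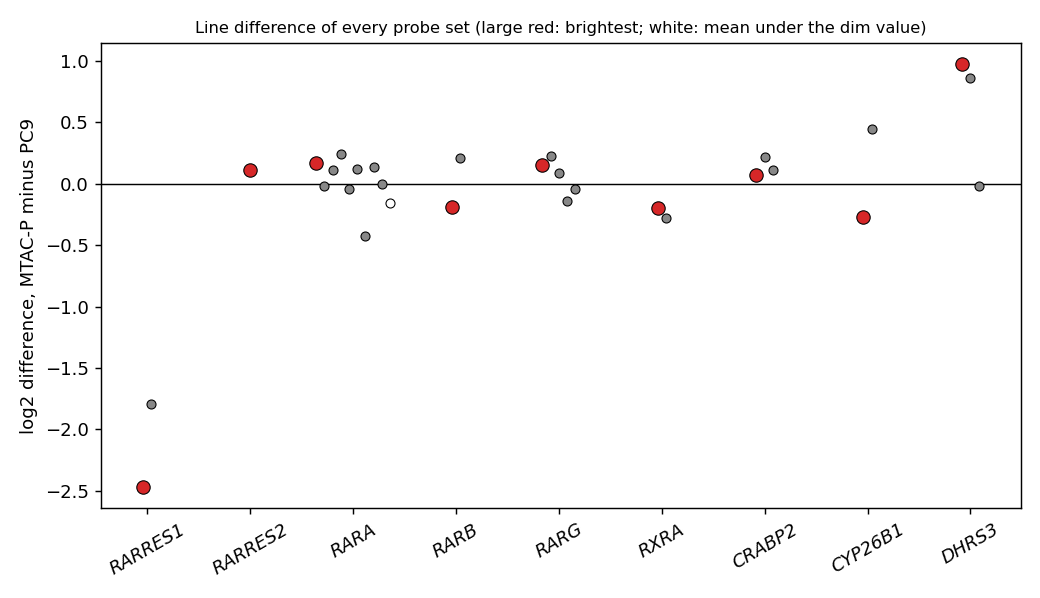
Log2 difference between MTAC-P and PC9 (y axis) of all 30 probe sets of the 9 genes (x axis), with the brightest probe set of each gene as a large red point and the 1 probe set under the dim value in white. Both RARRES1 probe sets lie at -1.79 or below, while the probe sets of RARA, RARB, RARG, CYP26B1 and DHRS3 (-0.020 to 0.97) lie on both sides of 0.

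The directions of the 9 brightest probe sets were the same with the arrays centred on their median or 75th percentile and with quantile normalization. Under these scalings RARRES1 ranged from -2.48 to -2.44 and DHRS3 from 0.95 to 1.00. Without PC9 replicate 2 the difference of RARRES1 was -1.87, and without PC9 replicate 1 it was -3.06. Control probe sets also differed between arrays. The poly-A spike-in controls averaged 7.29 and 7.60 in PC9 and 8.13 and 8.19 in MTAC-P. For ACTB, the 3′ probe set minus the 5′ one, a measure of RNA quality, gave 1.71 and 2.49 on the log2 scale in PC9 and 1.51 and 1.75 in MTAC-P. The PC9 array with the higher RARRES1 value thus also had the highest 3′ minus 5′ difference for ACTB. The same measure for GAPDH lay between -0.090 and 0.038 on all arrays. Their part in the RARRES1 difference was not tested.

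The 5 genes whose values, centred on their mean, lay closest to those of RARRES1 over the 4 arrays were SPRR3, SERPINB4, PTGS2, CEACAM6 and IGFBP2. Likeness was measured as the Euclidean distance of centred log2 values, which was 0.29 for SPRR3 and 0.68 for IGFBP2. SPRR3, a small proline-rich protein of the cornified envelope, read 6.23 and 7.41 in PC9 and 4.74 and 4.53 in MTAC-P. SERPINB4, a squamous cell serpin, read 5.23 and 6.74 in PC9 and 3.71 on both MTAC-P arrays. Its sequence is nearly identical to that of SERPINB3, so the probe set may measure both. PTGS2, the inducible cyclooxygenase, differed by -2.50, CEACAM6, a carcinoembryonic adhesion molecule, by -2.18 and IGFBP2, an insulin-like growth factor binding protein, by -2.18. For SPRR3, SERPINB4, PTGS2 and CEACAM6, as for RARRES1, the second PC9 array read from 0.75 to 1.51 above the first. All 5 were among the 9 genes with the lowest differences, and the measure depends on the size of the line difference and on the gaps between duplicates. These genes were picked for their pattern over 4 arrays, so no test is given.

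**Figure D4:**
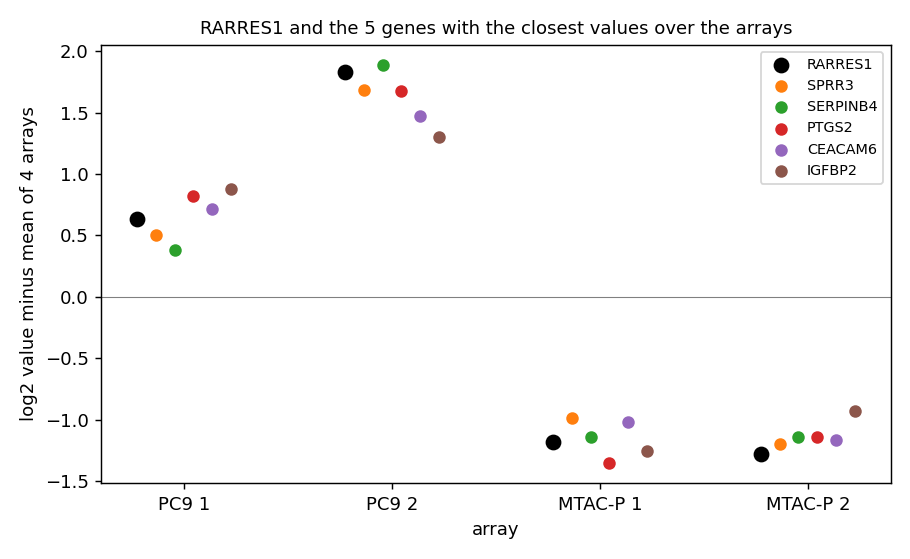
Log2 value minus the mean of 4 arrays (y axis) on each array (x axis) for RARRES1 in black and the 5 genes closest to it in colour. All 6 genes lie above 0 on both PC9 arrays and below 0 on both MTAC-P arrays, with PC9 replicate 2 above PC9 replicate 1.

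RARRES1 spans chr3:158696892-158732457 on GRCh38.p14, and its nearest tested protein-coding neighbours differed far less than it did. GFM1, a mitochondrial elongation factor gene that ends 1310 bases before RARRES1, read 10.15 and 9.86 in PC9 and 10.06 and 9.81 in MTAC-P, a log2 difference of -0.069 (SE 0.18, limma adjusted p = 0.863). MFSD1, a lysosomal transporter gene on the other side at a distance of 69596 bases, read 10.49 and 10.86 in PC9 and 10.26 and 10.13 in MTAC-P. Its log2 difference was -0.48 (SE 0.19, limma adjusted p = 0.241), with both MTAC-P arrays below both PC9 arrays. LXN, which encodes latexin, the relative of RARRES1, lies 24243 bases away and was under the dim value, between 3.66 and 3.90 on the 4 arrays.

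Beyond the 9 genes, 83 other retinoid genes were listed by role, with earlier results of these data known. Of these, 73 had a probe set naming a single gene and 53 passed the dim filter and were tested. None of the 53 passed the limma threshold over all genes (0 genes at an adjusted p of 0.05), where 0.02% of all tested genes passed. At an unadjusted limma p under 0.05 there were 13 of the 53, 2 higher and 11 lower in MTAC-P, or 24.5%. Of all tested genes 18.9% had such a p, 7.76% higher and 11.1% lower. The mean was higher in MTAC-P for 25 and lower for 28, with a median log2 difference of -0.017, beside 53.8% higher over all genes. Without PC9 replicate 1 the count past the threshold was 1, ALDH1A1.

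Among genes of uptake and storage, STRA6, the membrane receptor that takes up retinol, read 8.02 and 9.03 in PC9 and 7.45 and 7.98 in MTAC-P. Its log2 difference was -0.81 (SE 0.35, limma adjusted p = 0.281), its arrays just failed to overlap, and its 4 probe sets all lay lower in MTAC-P, from -1.28 to -0.30. Without PC9 replicate 1 or 2 the difference of STRA6 was -1.32 or -0.31. RBP4, the carrier of retinol in blood, differed by 0.35 (SE 0.22), with overlapping arrays. Of the 5 tested genes of this role 3 were higher, 2 lower and 0 had an unadjusted p under 0.05.

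Of the 17 tested genes listed here under retinaldehyde and retinoic acid synthesis, 10 were higher and 7 lower. The list went by enzyme family, and the direction in which each enzyme works was not considered. An unadjusted limma p under 0.05 was reached by 3 of them (17.6%), all lower, beside 18.9% of all tested genes. ALDH1A1, which oxidises retinaldehyde to retinoic acid, read 5.89 and 7.05 in PC9 and 4.88 and 4.55 in MTAC-P, and its 3 probe sets differed by -1.75 to -1.64 (brightest -1.75, SE 0.37, limma adjusted p = 0.113). ALDH1A3, of the same enzyme family, differed by 0.16 (SE 0.22), with 11.13 and 10.62 in PC9 and 11.20 and 10.88 in MTAC-P, and its 4 probe sets were higher by 0.16 to 0.80. ALDH1A2 lay near the dim value and differed by 0.042. RDH13, named as a retinol dehydrogenase, had the largest positive difference of this list, 0.29 (SE 0.16). In the removal of retinoic acid, CYP26A1 was near the dim value, at 4.76 and 4.51 in PC9 and 4.70 and 4.61 in MTAC-P, a difference of 0.018.

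The receptors and cofactors had 10 tested genes, of which 7 were lower and 3 higher. An unadjusted limma p under 0.05 was reached by 7 of them (70%), 5 lower and 2 higher, beside 18.9% of all tested genes. NRIP1, a corepressor that binds liganded RARs and is induced by retinoic acid, read 7.91 and 8.21 in PC9 and 6.89 and 7.18 in MTAC-P. Its log2 difference was -1.03 (SE 0.19, limma adjusted p = 0.109), and its other probe set differed by -0.55. TBL1XR1, a subunit of the NCoR corepressor complex, differed by -1.01 (SE 0.17, limma adjusted p = 0.0995), from 10.20 and 10.32 to 9.37 and 9.13, although 1 of its 4 probe sets differed by 0.012 and the mean of all 4 by -0.44. HDAC3, the deacetylase of that complex, had the largest positive difference, 0.53 (SE 0.21, limma adjusted p = 0.244), from 7.65 and 7.26 to 7.82 and 8.14. TBL1X, of the same list, differed by 0.21 (SE 0.17, limma adjusted p = 0.542), and 5 of its 7 probe sets were higher in MTAC-P. RXRB, the beta RXR, read 8.25 and 8.27 in PC9 and 8.69 and 8.80 in MTAC-P, a difference of 0.49 (SE 0.15, limma adjusted p = 0.179), and 0.14 with the mean of its probe sets. The rest of this list, NCOA1, EP300, CREBBP, MED1 and PPARD, were all lower, by -0.50, -0.43, -0.39, -0.22 and -0.12. Of these, NCOA1, EP300 and CREBBP were among the 7 with an unadjusted limma p under 0.05 (limma adjusted p = 0.259, 0.246 and 0.262). All 6 probe sets of NCOA1 were lower, but 1 of the 5 of CREBBP and 2 of the 3 of PPARD were higher. The NCoR genes themselves were not analysed here.

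Of the 16 tested genes listed here as targets of retinoic acid, 7 were higher and 9 lower. An unadjusted limma p under 0.05 was reached by 3 of them (18.8%), all lower, beside 18.9% of all tested genes. Some responders, such as NRIP1 and CYP26A1, were counted under other roles. PLAAT4, also known as RARRES3, a phospholipase gene named like RARRES1 for its response to a retinoid, was 2.82-fold lower in MTAC-P. It read 5.85 and 6.36 in PC9 and 5.06 and 4.17 in MTAC-P, a log2 difference of -1.50 (SE 0.32, limma adjusted p = 0.117). The lower MTAC-P array of PLAAT4 was close to the dim value, its 2 brighter probe sets differed by -1.50 and -0.70, and the mean of its 3 probe sets by -0.64. TGM2, tissue transglutaminase, a well-known retinoic acid target, had the largest positive difference of the 16, from 9.93 and 9.82 to 10.11 and 10.46. The difference of TGM2 was 0.41 (SE 0.18, limma adjusted p = 0.291), and 0.079 with the mean of its 4 probe sets. Without MTAC-P replicate 2 it was 0.23. Listed here as partners of RARRES1 and RARRES2 were 4 tested genes, and these data do not show that CPA4 acts with RARRES1. CPA4, a carboxypeptidase of the family that latexin inhibits, differed by 0.27 (SE 0.30) and CCRL2, a chemerin receptor that does not signal, by -0.37 (SE 0.18). CMKLR1, the signalling chemerin receptor, differed by -0.12. None of these 4 genes had an unadjusted limma p under 0.05.

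**Figure D5:**
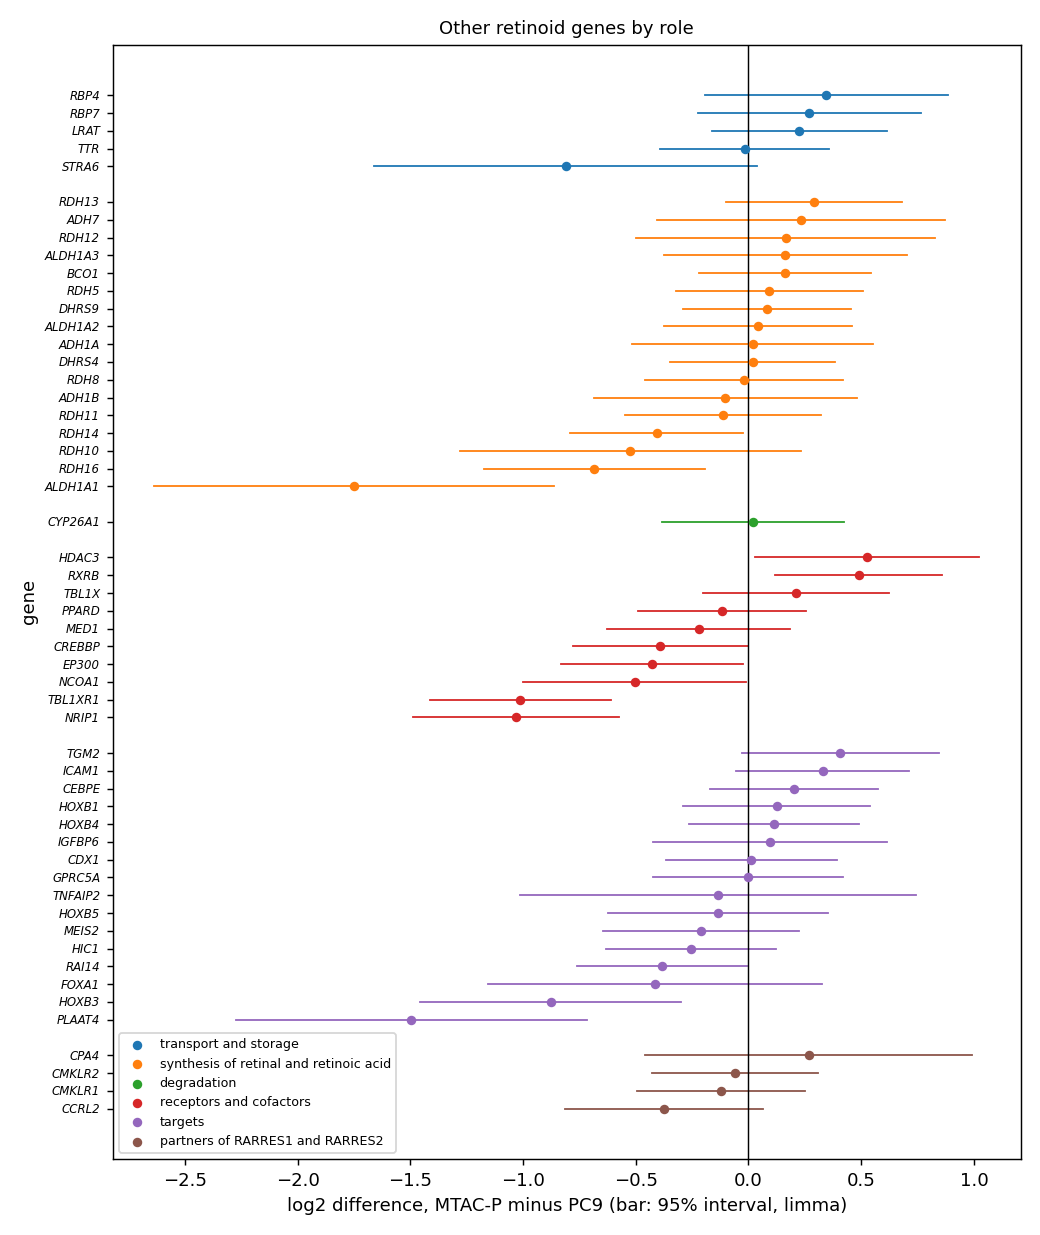
Log2 difference between MTAC-P and PC9 (x axis) of the 53 other retinoid genes tested, one per row and coloured by role, with 95% intervals of limma as bars. ALDH1A1 at -1.75, PLAAT4 at -1.50, NRIP1 at -1.03 and TBL1XR1 at -1.01 lie lowest, and no gene lies above 0.53.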

How the data were processed

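The authors deposited log2 expression values, 1 per probe set and array, for 49386 probe sets on 4 arrays. That the scale is log2 was read from the range of the values. Agilent Feature Extraction 10.7 is named per the submitters' processing notes and a one-colour Cy3 kit per the labels' protocols, although the probe-set names are of Affymetrix type. Background correction, normalization and summarization are not given in the sources used here. Array medians ran from 4.85 to 4.88, so no further scaling was applied.

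Probe sets with 1 symbol in GEO's platform annotation numbered 45253. Through gene identifiers, symbols were brought up to date with the table of GRCh38.p14, which held 14944 of the 14970 tested genes. Each gene was represented by its brightest probe set, and 3269 genes under the 25th percentile of probe-set means were left out. MTAC-P was set against PC9 with limma 3.58.1 under R 4.3.3 (constant prior variance, 2-sided, Benjamini-Hochberg over all tested genes at 0.05), tested on simulated data. With 2 against 2 arrays, an exact permutation test cannot give a p below 0.333. Figures used Python 3.11.15 and matplotlib 3.10.9.

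The 9 genes and the lists were chosen with earlier results of these data known. The limma p-values and counts of the other retinoid genes carry that limit. Named by rule were the 9 genes, the largest difference in each direction per role, LXN, RXRB, CYP26A1, TGM2, the ALDH1A genes, the nearest tested neighbours and the 5 genes most like RARRES1. Other genes were named after their values were seen. Tried as alternatives were a block for the replicate number, other scalings, filters and probe-set rules, a variance trend, an unmoderated test, a tested fold of 1.5, a pseudocount of 16 and leaving out each array. The second brightest probe set was added after seeing the data.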

Additional observations from a re-analysis of the deposited data

How the results depend on the processing

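RARRES1 stayed lower in MTAC-P under every alternative run, at -1.79 with its second probe set and between -3.06 and -1.87 when 1 array was left out. The median difference of the other 8 genes ranged from -0.047 (without MTAC-P replicate 2) to 0.13 when 1 array was left out. Single genes that turned sign were CYP26B1 (0.086 with the mean of its probe sets, 0.44 with the second probe set, -0.64 to 0.10 when 1 array was left out), RARB (0.0095 with the mean, 0.21 with the second probe set), RARA (-0.020 with the second probe set), and, when 1 array was left out, RARG (-0.0083 to 0.30), RXRA (-0.47 to 0.063), CRABP2 (-0.14 to 0.28) and RARRES2 (-0.080 to 0.29, with -0.043 without PC9 replicate 2).

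The 3 genes past the limma threshold became 0 with the mean of probe sets and in the unmoderated test, 1 with the pseudocount, the tested fold of 1.5 or the 50th percentile filter, 77 with a variance trend, and 0 to 57 when 1 array was left out. Of the other retinoid genes, 0 passed; 1 passed with a variance trend (TBL1XR1) and 0 to 1 when 1 array was left out. With the 50th percentile filter, which tests 32 of them, 13 were higher in MTAC-P. With the replicate number as a block, 2079 of the 14970 tested genes passed, and 7 of the 53 other retinoid genes, a similar share. These 7 were ALDH1A1, HOXB3, NRIP1, PLAAT4, RDH16, STRA6 and TBL1XR1. HOXB3 had 1 of its 4 probe sets above the dim value and read 3.90 and 4.45 in MTAC-P. It differed by -0.18 with the mean of its probe sets. RDH16 has 1 probe set and read 4.26 and 4.67 in MTAC-P, near the dim value. The labels do not say that the numbers pair arrays, and the replicate differences of the lines correlated at 0.28 across 14970 genes. Causes were not tested. The table has no detection calls, so differences of genes near the dim value, such as RARB, RARRES2 and CYP26A1, are limited by background.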
